A study of Mus musculus with 4 samples.

Results

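Fibroblast growth factors (FGFs), bone morphogenetic proteins (BMPs), growth and differentiation factors (GDFs), transforming growth factors beta (TGF-betas) and activins, together with their receptors, were examined in single-cell RNA sequencing of the postnatal mouse thyroid. The genes were chosen by symbol, and 66 of the 32285 annotated genes qualified. They comprised 22 FGF ligands, 4 FGF receptors, 21 BMP and GDF ligands, 3 TGF-beta ligands, 4 activin beta subunits and 12 receptors of the TGF-beta superfamily. Thyroids of C57BL/6 mice were dissected at postnatal day 5, 10, 20 and 30, the tissue of several animals was pooled into 1 library per age, and no genetic change or treatment was applied. With 1 library per age, differences between ages could not be tested, whereas differences between cell classes were tested over the 4 libraries.

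FGFs bind receptor tyrosine kinases on neighboring cells, with heparan sulfate proteoglycans as co-receptors. FGF7 and FGF10 are typical products of mesenchyme, and the epithelial form of FGFR2 is their receptor. BMPs, activins, TGF-betas and most, but not all, GDFs assemble a type I with a type II serine/threonine kinase receptor and signal through Smad proteins. FGF and BMP signals from the surrounding mesenchyme and vessels are known for their part in thyroid growth in the embryo.

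Sequences upstream of 4 of these genes are shown because the values described below turn on them. Fgf7, Fgf10 and Gdf10 were at far higher levels in fibroblast-like cells than in the other classes compared, and Fgfr2 in follicular cells. Each sequence covers 250 bases before and 50 bases after the gene start as RefSeq gives it for GRCm38.p6, on the strand of the gene. Capitals mark matches on either strand to 4 short motifs, the TATA box TATAAA, the GC box GGGCGG, the NKX2 core CAAGTG and the AP-1 site TGANTCA.
Fgf7, chr2:126034408-126034707, plus strand: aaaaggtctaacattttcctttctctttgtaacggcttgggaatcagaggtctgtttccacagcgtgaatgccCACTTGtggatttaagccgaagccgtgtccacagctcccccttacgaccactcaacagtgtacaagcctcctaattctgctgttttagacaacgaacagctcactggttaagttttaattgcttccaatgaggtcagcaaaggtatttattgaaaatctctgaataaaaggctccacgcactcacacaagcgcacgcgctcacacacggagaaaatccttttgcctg
Fgf10, chr13:118714449-118714748, plus strand: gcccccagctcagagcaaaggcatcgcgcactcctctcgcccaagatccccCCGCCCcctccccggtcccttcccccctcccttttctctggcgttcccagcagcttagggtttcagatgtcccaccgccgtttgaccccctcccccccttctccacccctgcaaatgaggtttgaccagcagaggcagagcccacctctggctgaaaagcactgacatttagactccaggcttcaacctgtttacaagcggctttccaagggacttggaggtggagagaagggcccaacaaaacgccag
Gdf10, chr14:33923337-33923636, plus strand: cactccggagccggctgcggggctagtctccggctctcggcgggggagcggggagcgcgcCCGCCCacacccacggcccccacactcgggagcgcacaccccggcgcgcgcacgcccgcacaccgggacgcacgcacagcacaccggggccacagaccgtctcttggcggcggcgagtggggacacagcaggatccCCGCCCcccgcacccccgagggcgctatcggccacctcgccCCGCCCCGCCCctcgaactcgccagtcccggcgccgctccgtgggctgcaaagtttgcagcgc
Fgfr2, chr7:130266759-130267058, minus strand: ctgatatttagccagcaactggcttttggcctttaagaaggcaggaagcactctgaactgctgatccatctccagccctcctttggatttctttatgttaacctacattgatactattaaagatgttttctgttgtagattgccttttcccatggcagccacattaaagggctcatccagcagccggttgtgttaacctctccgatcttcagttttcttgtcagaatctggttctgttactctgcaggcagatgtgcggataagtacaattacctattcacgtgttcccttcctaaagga

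The Fgf7 window held 1 NKX2 core, the Fgf10 window 1 GC box and the Gdf10 window 4 GC boxes, of which the last pair overlap by 1 base and so form 1 run of capitals. The Fgfr2 window held none of the 4 motifs. Of all 32851 promoter windows of this length in the RefSeq table, 13.6% held the TATA box, 35.7% the GC box, 13.6% the NKX2 core and 7.81% the AP-1 site. No motif was found in all 3 windows of the fibroblast-like genes, while the GC box was in both the Fgf10 and the Gdf10 window. Their GC content ranged from 45.7% in Fgf7 over 60.7% in Fgf10 to 77.3% in Gdf10, with 43.7% in Fgfr2, beside a median of 52.7% over all windows. A match is a run of letters and not a measured binding site, and the libraries did not read promoters.

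Between 4820 and 12956 cells per library were kept, 29578 in all, with a median of 3035 to 7060.5 unique molecular identifiers (UMIs, which count captured RNA molecules) per cell. Clusters made without the 66 genes were named from their marker genes, and 24412 cells fell into 6 classes, which were thyroid follicular cell (TFC)-like, endothelial-like, fibroblast-like, stromal-like (mural cells around vessels), macrophage-like and T-like. Summed markers of the own class reached at least 4450 CPM (UMIs of a gene per 1000000 UMIs of the sum) in every class and library. Several facts bear on the labels and on all results below. H19, an imprinted RNA known to decline after birth, was measured in fibroblast-like cells at 60.4, 816, 124 and 2888 CPM by labelled age (day 5, 10, 20 and 30), which does not follow the order of the labelled ages. Igf2 (18.4, 219, 38.7 and 929 CPM) and Dlk1 (38.6, 138, 44.7 and 597 CPM), growth genes also known to decline after birth, ranked the libraries the same way. At the labels day 10 and day 30, fibroblast-like cells lay mostly in a cluster led by Col1a2, Postn and H19 (992 of 1052 and 689 of 753 cells), and at the labels day 5 and day 20 in a cluster led by Dcn, Apod and Inmt (1243 of 1564 and 288 of 391 cells). Ages are therefore given as labelled, and every direction between them rests on the labels. An exchange of the libraries labelled day 5 and day 30 would turn each direction between these ages, and was not tested. In the deposited list of cells, the group numbers 1, 2, 3 and 4 belong to the libraries labelled day 30, 10, 20 and 5. Among the libraries labelled day 10, 20 and 30, 97.4% to 98.8% of the barcodes of listed cells also occurred in each of the other 2 matrices, with a median of 8 to 12 UMIs there. In pairs with the library labelled day 5 the share was 33.6% to 49.9%, with a median of 1 UMI. The part of these shared barcodes in the results was not tested, other than that leaving out the 164 kept cells whose barcode was a cell in another library too changed no call among the members. In 2 clusters the leading genes included markers of another of the 6 classes, and where leaving them out ended a described call or turned its direction, both values are given. The stromal-like one, with 235 cells, was led also by the endothelial gene Cdh5. Its median was 10281 UMIs per cell, against 3796 in the other stromal-like cluster of 625 cells. It therefore weighed more in the summed UMIs than its share of cells. At the labels day 10 and day 20 it held most of the stromal-like UMIs. Stromal-like counts, medians and levels given without further mention include it. Upper limits given for the other classes include it too, and some stromal-like levels without it were above them. Summed endothelial markers were at 3139 to 6535 CPM in stromal-like cells, beside 9938 to 19160 CPM for their own. The endothelial-like one, with 223 cells (112 and 102 of them labelled day 10 and day 30), was led also by the follicular gene Foxe1. Summed follicular markers were at 1678 to 5971 CPM in endothelial-like cells. Of the T-like cells in the libraries labelled day 20 and day 30, 2625 of 3929 and 786 of 1230 lay in a cluster led by Trbc1, Rag1 and Cd8b1, which held 1 and 2 cells of the other libraries. Clusters led also by a marker of a class outside the 6 were kept throughout, Lyve1 in a macrophage-like cluster and Gzma in a pair of T-like clusters.

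UMIs were summed per class and library, and 42 of the 66 members had at least 50 UMIs over the 24 sums. Each class was compared with the mean of the log2 levels of the other 5 classes in edgeR, with the library as a block, and a member was called at an adjusted p under 0.05. Since the comparison is with a mean of logarithms, a class can be called higher while another class is higher still, so levels are given first. Where other classes are mentioned, the other 5 of these 6 are meant. Among fibroblast-like cells 24 members were called higher and 4 lower, where 29.8% and 20.7% of all 16248 genes tested were. Stromal-like cells, with the mixed cluster included, had 23 higher and 1 lower (21.4% and 11.1% of all genes). Endothelial-like cells, likewise with theirs, had 15 higher and 10 lower (22.5% and 17.0%). TFC-like cells had 13 higher and 14 lower (35.0% and 25.4%), macrophage-like cells 9 higher and 18 lower (23.1% and 24.9%), and T-like cells 2 higher and 31 lower (29.2% and 37.3%). The median log2 fold change of the members was 1.28 in fibroblast-like and 0.99 in stromal-like cells, near 0 for all genes in both (-0.01 and -0.02), and -3.55 in T-like cells beside -0.26 for all genes. In TFC-like cells the share of members called higher was close to that of all genes. Fgf7 and Fgf16, counted in fibroblast-like cells, and Gdf5, counted in stromal-like cells, passed the filter only through the class where they were high. Fgf12, counted higher in TFC-like and fibroblast-like cells, had 70 UMIs over the 6 classes and its highest median level in TFC-like cells. These counts and medians are therefore descriptions.

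**Figure D1:**
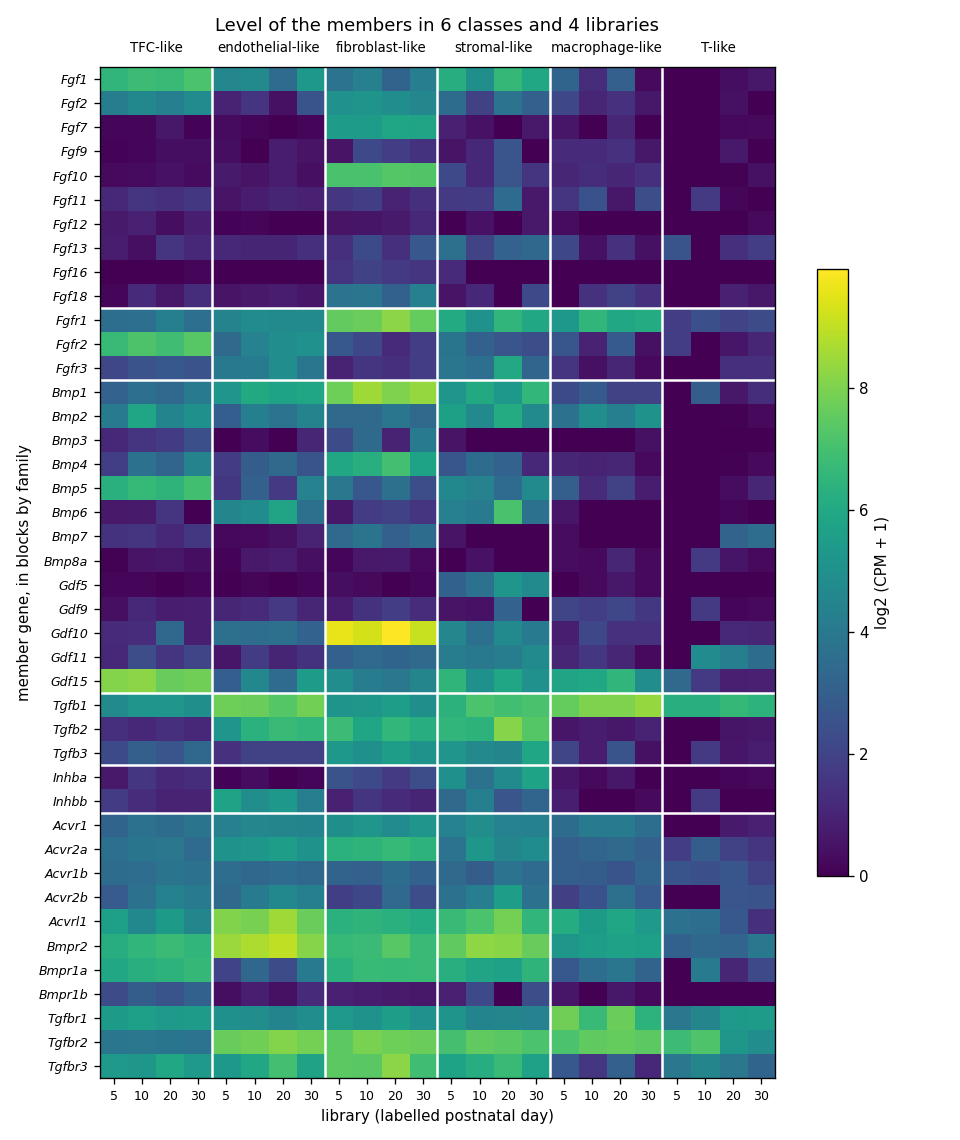
Level of the 42 members that passed the filter, as log2 (CPM + 1), with genes in rows grouped by family and the 6 classes in columns, each with the libraries labelled day 5, 10, 20 and 30 from left to right. Gdf10, Fgf7 and Fgf10 stand out in the fibroblast-like columns, Fgfr2, Bmp5 and Gdf15 in the TFC-like columns, and the T-like columns are near 0 for most rows.

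By the median level over the 4 libraries, 17 of the 42 members were highest in fibroblast-like cells, 8 in endothelial-like, 7 in TFC-like, 6 in stromal-like and 4 in macrophage-like cells, and none in T-like cells. Of all genes tested, 14.8%, 16.0%, 24.6%, 12.7%, 12.6% and 19.4% were highest in these classes, in the same order. For 15 members the lowest library of the highest class exceeded every library of every other class, beside 27.3% of all genes. These were Fgf7, Fgf10, Fgf16, Fgf18, Fgfr1, Gdf10, Bmp1, Bmp4 and Acvr2a in fibroblast-like cells, Fgfr2, Bmp5 and Gdf15 in TFC-like cells, Gdf5 and Inhba in stromal-like cells and Tgfbr1 in macrophage-like cells. Fgf7, Fgf16 and Gdf5 passed the filter only through the class where they were highest, so their separation is a description.

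Among the FGF ligands, Fgf10 and Fgf7, whose products act on epithelia, were high in fibroblast-like cells only among the 6 classes. Fgf10 was at 134, 135, 158 and 152 CPM in fibroblast-like cells at the labels day 5, 10, 20 and 30, the order used throughout, and at no more than 5.07 CPM in any library of the other 5 classes. Fgf7 was at 43.2, 44.4, 57.9 and 55.1 CPM there and at no more than 1.10 CPM in the other 5. The fibroblast-like values varied little among libraries and were far from those of the other 5 classes. Without the cluster led also by Cdh5, stromal-like Fgf10 reached 19.1 CPM at the label day 20, from 2 UMIs. The log2 fold change of Fgf10 was 8.09 ± 0.15 (SE, 4 libraries, edgeR adjusted p = 1.1e-19), and Fgf7, which passed the filter only through fibroblast-like cells, is given by its levels alone. RNA outside cells, measured in droplets of 10 to 100 UMIs, held Fgf10 at 4.8 to 10.5 CPM and Fgf7 at 1.03 to 4.54 CPM, above their level in TFC-like cells (0.19 to 0.41 and 0.071 to 0.55 CPM).

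Fgf18, a ligand known from cartilage, bone and lung, was at 12.9, 14.0, 7.55 and 19.3 CPM in fibroblast-like cells and did not exceed 3.59 CPM in the other 5 classes (log2 fold change 4.06 ± 0.32, adjusted p = 7.0e-10). Fgf16 was sparse, with 13, 28, 7 and 20 UMIs in fibroblast-like cells, 3 in stromal-like, 2 in TFC-like and none in endothelial-like, macrophage-like or T-like cells. It was tested only because of its fibroblast-like UMIs, and its call there was lost with DESeq2. Fgf9, a ligand of lung and gonad development, was at 0.43 to 3.56 CPM in fibroblast-like cells (2.21 ± 0.46, adjusted p = 4.3e-04). Fgf11, Fgf12 and Fgf13, which stay inside the cell and act on ion channels, did not pass 11.9 CPM in any of the 6 classes, and Fgf11 was called higher in macrophage-like (1.83 ± 0.42, adjusted p = 0.0012) and Fgf13 in stromal-like cells (2.01 ± 0.46, adjusted p = 0.0017), a call lost with at most 5% mitochondrial UMIs per cell (adjusted p = 0.060).

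Fgf1 and Fgf2, ligands without a classical secretion signal, were both called higher in TFC-like cells, though not there alone. Fgf1 was at 92.2, 110, 105 and 137 CPM in TFC-like cells and at 72.5, 29.7, 96.3 and 59.3 CPM in stromal-like cells, with 22.4 to 38.7 CPM in free RNA. The TFC-like and stromal-like ranges overlapped, and both classes were called higher than the mean of the others, by 3.76 ± 0.34 (adjusted p = 1.1e-08) and 2.49 ± 0.40 (adjusted p = 5.4e-05) on the log2 scale. Fgf2 was at 17.2, 23.9, 18.4 and 26.5 CPM in TFC-like and at 32.0, 33.9, 28.6 and 23.1 CPM in fibroblast-like cells. These were the highest levels of Fgf2 among the 6 classes, again with overlap, at log2 fold changes of 2.82 ± 0.32 and 3.54 ± 0.32 (adjusted p = 2.5e-07 and 9.2e-09). In endothelial-like cells Fgf1 was at 10.2 to 38.7 CPM, beside 22.4 to 38.7 CPM in free RNA. Its call there (1.05 ± 0.39, adjusted p = 0.039) was lost without the library labelled day 10 or day 30 (adjusted p = 0.16 and 0.17), without the mixed cluster (adjusted p = 0.14) and with DESeq2 (adjusted p = 0.11).

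Of the FGF receptors, Fgfr2, which in its epithelial form binds FGF7 and FGF10, was highest in TFC-like cells among the 6 classes. Its level there was 103, 142, 119 and 161 CPM. Endothelial-like cells held 9.77, 20.4, 28.3 and 31.5 CPM and were called higher (1.78 ± 0.35, adjusted p = 4.2e-04). Free RNA of the same libraries held Fgfr2 at 38.4, 18.8, 29.2 and 37.4 CPM, above the endothelial-like level in 3 of 4, and its part in that call was not tested. Without the cluster led also by Foxe1, endothelial-like Fgfr2 was at 9.20, 13.4, 24.9 and 12.7 CPM (1.19, adjusted p = 0.014). The remaining 4 classes held at most 13.6 CPM. No library of the other 5 classes reached the TFC-like levels, and the log2 fold change was 4.96 ± 0.31 (adjusted p = 1.1e-10). UMIs were counted per gene, so the epithelial form of Fgfr2 was not told apart from its other forms. Fibroblast-like cells, which held the ligands Fgf7 and Fgf10, had Fgfr2 at 1.26 to 5.6 CPM. Their lower call (-1.27 ± 0.46, adjusted p = 0.026) was lost without the library labelled day 10, 20 or 30 (adjusted p = 0.057, 0.094 and 0.067), and the value turned to 0.34 with doublets kept.

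Fgfr1, a widespread mesenchymal FGF receptor, was at 184, 204, 295 and 190 CPM in fibroblast-like cells, against 38.0 to 91.6 CPM in macrophage-like, 33.2 to 91.2 CPM in stromal-like and 11.1 to 18.4 CPM in TFC-like cells. It was higher in fibroblast-like cells (3.45 ± 0.16, adjusted p = 4.4e-14) and in macrophage-like cells (1.46 ± 0.18, adjusted p = 5.3e-07), and lower in TFC-like cells (-1.56 ± 0.21, adjusted p = 1.5e-06). Fgfr3 was at 15.2, 16.5, 27.9 and 13.9 CPM in endothelial-like cells (2.53 ± 0.28, adjusted p = 2.6e-07). In stromal-like cells it was at 8.38 to 63.4 CPM and was called higher (2.46 ± 0.35), but without the cluster that was led also by Cdh5 the fold change was -0.67 (adjusted p = 0.48). Fgfr4 had 31 UMIs over all cells and was not tested.

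**Figure D2:**
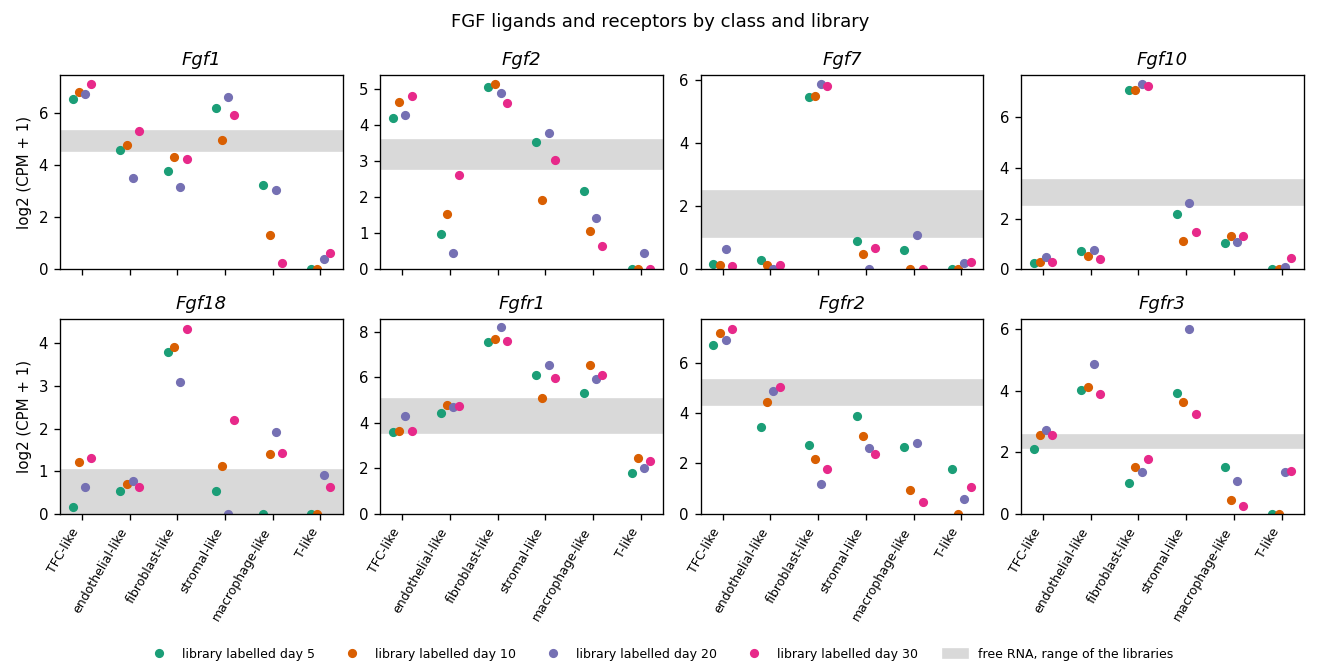
Level of the ligands Fgf1, Fgf2, Fgf7, Fgf10 and Fgf18 and the receptors Fgfr1, Fgfr2 and Fgfr3, as log2 (CPM + 1), in the 6 classes. Each point is 1 library, colored by its labelled age, and the gray band spans the free RNA of the 4 libraries. Fgf7 and Fgf10 stand above the band in fibroblast-like cells and Fgfr2 in TFC-like cells.

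BMP and GDF ligands divided among the classes. In fibroblast-like cells Gdf10, also called Bmp3b, was at 772, 622, 978 and 555 CPM, and none of the other 5 classes passed 25.4 CPM, with free RNA at 31.2 to 56.3 CPM. The log2 fold change was 7.61 ± 0.26 (adjusted p = 1.1e-15). Without the cluster led also by Cdh5, stromal-like cells held Gdf10 at 37.0, 22.7, 86.1 and 21.0 CPM, from 9 UMIs at the label day 20. Bmp4, which signals to epithelium in many organs, was at 60.9, 73.9, 124 and 54.0 CPM in fibroblast-like cells (5.50 ± 0.32, adjusted p = 7.3e-12). Bmp1, a procollagen protease that carries the BMP name but is no BMP-like ligand, was at 210 to 371 CPM there and at most 95.8 CPM in the other 5 classes (4.86 ± 0.16, adjusted p = 2.5e-16). Bmp3, a ligand that opposes other BMPs, ranged from 0.94 to 15.8 CPM in fibroblast-like and from 1.17 to 4.40 CPM in TFC-like cells, so these ranges overlapped (5.35 ± 0.48 and 3.42 ± 0.55, adjusted p = 2.4e-08 and 3.1e-05). Bmp7, a ligand of kidney and skeletal development, was at 7.23 to 13.2 CPM in fibroblast-like cells (4.27 ± 0.38, adjusted p = 4.6e-09).

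Among BMP and GDF ligand genes, those leading in TFC-like cells were Gdf15, a divergent superfamily member known from cell stress, and Bmp5. Gdf15 was at 273, 297, 199 and 216 CPM and Bmp5 at 78.8, 99.9, 87.2 and 120 CPM. The other 5 classes held Gdf15 at no more than 92.2 CPM and Bmp5 at no more than 25.7 CPM, so neither gene overlapped with them. The log2 fold changes were 3.77 ± 0.33 (adjusted p = 8.5e-09) and 4.38 ± 0.38 (adjusted p = 6.3e-09). Without the cluster led also by Cdh5, stromal-like cells reached 119.8 CPM for Gdf15 and 39.4 CPM for Bmp5, still below every TFC-like library. Bmp2 was at 15.6, 56.0, 21.5 and 30.9 CPM in TFC-like and at 25.4 to 68.4 CPM in stromal-like cells, and was also called higher in macrophage-like cells, where it reached 12.1 to 32.8 CPM (1.86 ± 0.32, adjusted p = 6.1e-05), a call lost with marker gates in place of clusters. All of these ranges overlapped. The TFC-like call of Bmp2 was lost with at most 10000 UMIs per cell and with marker gates (adjusted p = 0.10 and 0.21). Gdf15 was called higher in macrophage-like cells too (1.54 ± 0.38, adjusted p = 0.0021), which was lost without the library labelled day 20 (adjusted p = 0.085).

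Bmp6, an iron-sensing and vascular BMP, was at 21.8, 26.5, 55.2 and 11.8 CPM in endothelial-like and at 18.9, 16.0, 134 and 12 CPM in stromal-like cells, of which the library labelled day 20 held 36 cells. The other 4 classes held at most 2.83 CPM, and the log2 fold changes were 4.93 ± 0.36 (adjusted p = 3.7e-10) and 5.01 ± 0.40 (adjusted p = 1.8e-09). Without the cluster led also by Cdh5, stromal-like cells held Bmp6 at 7.24, 4.54, 9.57 and 12.8 CPM, from 1 UMI in the library labelled day 20, and the value was 3.49 (adjusted p = 9.1e-05). Gdf5, a joint and tendon ligand, was at 7.47, 12.1, 35.5 and 25.1 CPM in stromal-like cells from 17, 31, 14 and 42 UMIs, and did not pass 0.55 CPM in the other 5 classes. Without the cluster led also by Cdh5, stromal-like Gdf5 was at 5.63, 25.8, 86.1 and 36.5 CPM, from 7, 17, 9 and 40 UMIs. Gdf5 passed the filter only through stromal-like cells and is given by its levels alone. Gdf11, a ligand that patterns the axial skeleton, was at 14.9 to 25.1 CPM in stromal-like cells (2.29 ± 0.33, adjusted p = 1.0e-05).

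In T-like cells Bmp7 and Gdf11 were the 2 members called higher. Bmp7 was at 7.85 and 10.8 CPM at the labels day 20 and day 30, and had no UMI in those labelled day 5 and day 10, where 3 UMIs would be 7.38 and 6.66 CPM. With no UMI, the exact upper limits for counting error were 9.07 and 8.19 CPM at the labels day 5 and day 10. Both limits were above the level at the label day 20 and below that at the label day 30. The libraries with Bmp7 UMIs were those whose T-like cells lay mostly in the cluster led by Trbc1, Rag1 and Cd8b1. The part of that cluster in the call of Bmp7 was not tested. Gdf11 was at 26.6, 17.8 and 10.3 CPM at the labels day 10, 20 and 30, counted from 12, 349 and 57 UMIs, and at 0 in that labelled day 5. The log2 fold change of Bmp7 was 3.69 ± 0.49 (adjusted p = 1.2e-06) and that of Gdf11 2.12 ± 0.35 (adjusted p = 2.2e-05). Macrophage-like cells had Gdf9 called higher (2.15 ± 0.43, adjusted p = 3.0e-04) at 2.08 to 3.31 CPM, from 6 to 14 UMIs per library.

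The TGF-beta ligands differed from each other in their classes. Tgfb1, the isoform of immune cells and endothelium, was at 190, 257, 260 and 325 CPM in macrophage-like and at 213, 200, 160 and 226 CPM in endothelial-like cells, and at 26.0 to 35.1 CPM in TFC-like cells. The macrophage-like and endothelial-like ranges overlapped, at log2 fold changes of 1.96 ± 0.12 (adjusted p = 1.2e-11) and 1.21 ± 0.13 (adjusted p = 8.1e-08). TFC-like and fibroblast-like cells were lower by -1.90 ± 0.16 and -1.50 ± 0.15 (adjusted p = 2.0e-09 and 4.6e-08). In stromal-like cells Tgfb1 differed by 0.18 (adjusted p = 0.37), and by -0.78 (adjusted p = 0.0014) without the mixed cluster.

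Tgfb2 followed another pattern. It was at 92.3, 85.3, 279 and 159 CPM in stromal-like, at 112, 58.5, 95.6 and 72.9 CPM in fibroblast-like and at 35.8, 81.3, 106 and 95.1 CPM in endothelial-like cells. All 3 classes overlapped and were called higher, by 4.57 ± 0.21, 4.06 ± 0.21 and 3.65 ± 0.21 (adjusted p = 2.8e-13, 3.7e-13 and 1.1e-11). TFC-like, macrophage-like and T-like cells held at most 1.61 CPM. Without the mixed cluster Tgfb2 was at 53.9, 65.1, 86.1 and 160 CPM in stromal-like cells (3.88, adjusted p = 9.0e-11). Tgfb3 was at 30.4 to 46.2 CPM in fibroblast-like and at 22.8 to 58.1 CPM in stromal-like cells (3.46 ± 0.26 and 3.08 ± 0.30, adjusted p = 3.8e-10 and 4.6e-08), and at 1.70 to 2.90 CPM in endothelial-like cells.

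The activin beta subunits, which form activins and inhibins as dimers, split between vessel-associated classes. Inhba was at 30.3, 12.1, 25.4 and 53.9 CPM in stromal-like cells and at most 4.88 CPM in the other 5 classes (5.66 ± 0.34, adjusted p = 1.7e-11, and 6.73 without the mixed cluster). Its stromal-like levels without that cluster were 49.0, 40.9, 9.57 and 81.2 CPM, from 1 UMI at the label day 20. Inhbb was at 52.6, 28.8, 38.5 and 17.9 CPM in endothelial-like cells (5.18 ± 0.30, adjusted p = 1.4e-11), while stromal-like cells held 5.07 to 18.4 CPM. The stromal-like call of Inhbb (3.18 ± 0.42) was lost without the mixed cluster (0.92, adjusted p = 0.36).

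Of the receptors of the TGF-beta superfamily, Acvrl1 (ALK1), the type I receptor of endothelium for BMP9 and BMP10, was at 263, 241, 370 and 202 CPM in endothelial-like cells. TFC-like cells held 22.8 to 48.4 CPM, which did not rise above free RNA (45.3 to 69.4 CPM). Endothelial-like cells were higher by 2.61 ± 0.18 (adjusted p = 1.5e-10). Stromal-like cells, at 91.0 to 233 CPM, were called higher by 1.35 ± 0.20, but without the mixed cluster the value was -0.57 (adjusted p = 0.12). Bmpr2, the BMP type II receptor, was at 346, 415, 512 and 280 CPM in endothelial-like and at 180 to 302 CPM in stromal-like cells (2.39 ± 0.12 and 1.46 ± 0.13, adjusted p = 2.7e-12 and 1.1e-08). Without the mixed cluster the stromal-like value of Bmpr2 was 0.59 (adjusted p = 0.0023), and its call was lost with marker gates in place of clusters.

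The BMP type I receptor Bmpr1a was at 58.9, 75.3, 85.7 and 96.2 CPM in TFC-like, at 79.4 to 106 CPM in fibroblast-like and at 50.7 to 86.2 CPM in stromal-like cells. These overlapped and were all called higher (2.25 ± 0.26, 2.76 ± 0.25 and 1.80 ± 0.29, adjusted p = 2.9e-07, 1.4e-08 and 5.6e-05), whereas endothelial-like cells were lower (-1.93 ± 0.34, adjusted p = 1.3e-04). Without the mixed cluster the stromal-like value of Bmpr1a was 2.81 (adjusted p = 3.7e-09). So endothelial-like cells were high for the type II receptor gene Bmpr2 and low for the type I receptor gene Bmpr1a. Bmpr1b, a type I receptor of cartilage and ovary, was at 3.79 to 7.45 CPM in TFC-like cells (3.98 ± 0.35, adjusted p = 2.1e-08). Its stromal-like call (2.34 ± 0.55, adjusted p = 0.0026) was lost without the library labelled day 10 (adjusted p = 0.052) and with at most 5% mitochondrial UMIs per cell (adjusted p = 0.14).

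The activin type II receptor Acvr2a was at 79.5 to 100 CPM in fibroblast-like and at 33.7 to 46.0 CPM in endothelial-like cells (2.98 ± 0.13 and 1.25 ± 0.14, adjusted p = 2.7e-14 and 2.9e-07). Acvr1, a BMP and activin type I receptor, was at 26.4 to 35.7 CPM in fibroblast-like cells (1.97 ± 0.12, adjusted p = 1.2e-11) and at no more than 0.90 CPM in T-like cells. It was also called higher in endothelial-like (1.01 ± 0.13, adjusted p = 1.5e-06) and stromal-like cells (1.00 ± 0.15, adjusted p = 2.0e-05). The higher call of Acvr1 in macrophage-like cells (0.53 ± 0.14, adjusted p = 0.0041) was lost with at most 10000 UMIs per cell and with marker gates. Acvr2b was called higher in stromal-like (1.19 ± 0.22, adjusted p = 1.6e-04), endothelial-like (1.04 ± 0.18, adjusted p = 9.3e-05) and TFC-like cells (0.68 ± 0.18, adjusted p = 0.0031) and lower in fibroblast-like (-1.01 ± 0.22, adjusted p = 6.2e-04) and T-like cells (-1.41 ± 0.28, adjusted p = 1.8e-04), with the 6 classes at 45.6 CPM or less. Acvr1b, the activin type I receptor, was called higher in TFC-like cells (0.62 ± 0.15, adjusted p = 0.0011), at 10.5 to 13.3 CPM beside 6.37 to 8.98 CPM in free RNA, and lower in T-like cells (-0.94 ± 0.22, adjusted p = 8.1e-04), which was lost without the library labelled day 30 (adjusted p = 0.053). With cells of at most 10000 UMIs the stromal-like, fibroblast-like and TFC-like calls of Acvr2b (adjusted p = 0.13, 0.24 and 0.56) and the TFC-like and T-like calls of Acvr1b (adjusted p = 0.10 in both) were lost. The stromal-like call of Acvr2a (0.47 ± 0.17, adjusted p = 0.043) was lost without the library labelled day 10, 20 or 30 (adjusted p = 0.46, 0.11 and 0.35) and turned to -0.12 without the mixed cluster.

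The TGF-beta receptors separated TFC-like and macrophage-like cells. Tgfbr2, the type II receptor that binds TGF-beta directly, was at 14.1, 14.2, 13.7 and 12.6 CPM in TFC-like cells, below its free RNA level of 28.1 to 55.2 CPM. Endothelial-like cells held 194 to 269 CPM, fibroblast-like cells 170 to 242 CPM and macrophage-like cells 139 to 190 CPM. TFC-like cells were lower by -3.53 ± 0.30 (adjusted p = 3.6e-09), the largest lower difference of a member in that class, and the 3 other classes were higher by 1.22 ± 0.21, 1.32 ± 0.21 and 1.06 ± 0.22 (adjusted p = 8.9e-05, 2.4e-05 and 3.8e-04). The type I receptor Tgfbr1 was at 221, 102, 209 and 85.4 CPM in macrophage-like cells and at 40.7 to 47.6 CPM in TFC-like cells, and differed by 2.36 ± 0.18 (adjusted p = 4.5e-10) and 0.01 ± 0.20 (adjusted p = 1.0). With cells of at most 10000 UMIs, the study's own limit, the TFC-like difference of Tgfbr1 was -0.65 (adjusted p = 0.020). Tgfbr3 (betaglycan), the co-receptor that presents TGF-beta2, was at 171, 165, 295 and 117 CPM in fibroblast-like and at 1.14 to 7.18 CPM in macrophage-like cells (2.98 ± 0.17 and -3.73 ± 0.29, adjusted p = 3.0e-12 and 7.8e-10).

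**Figure D3:**
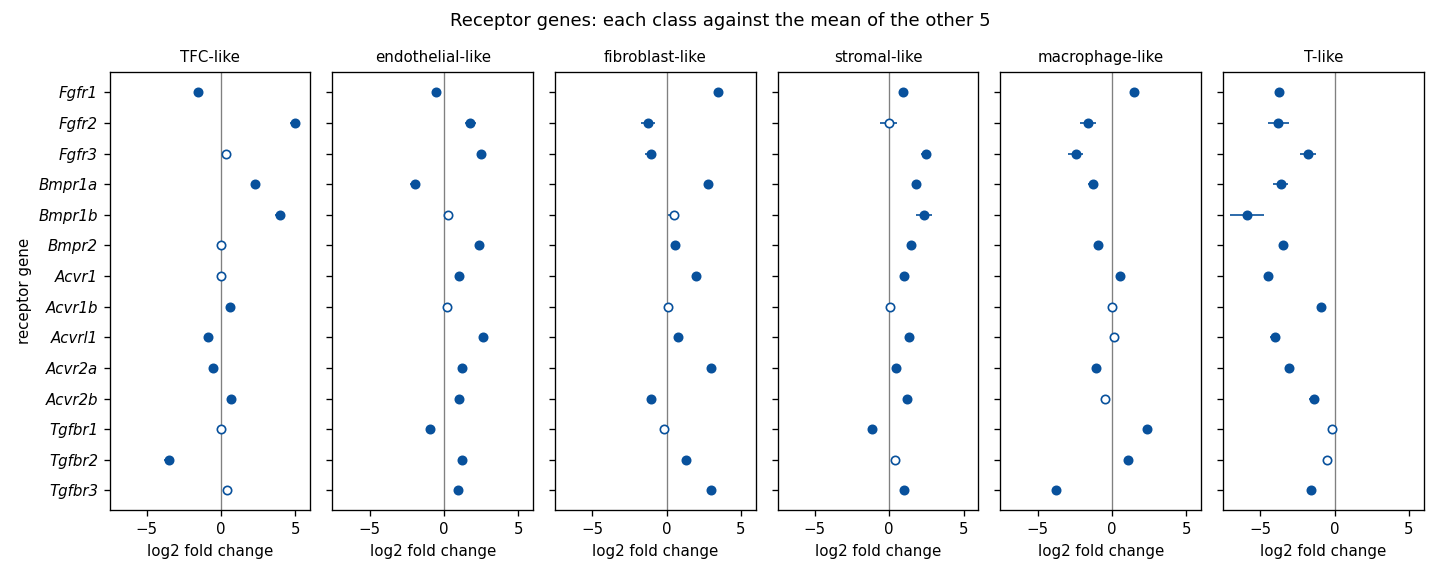
Log2 fold change of 14 receptor genes in each class against the mean of the other 5, with bars of 1 SE from edgeR over 4 libraries. Filled points passed an adjusted p of 0.05 and open points did not, and Bmpr1b in macrophage-like cells, with almost no UMIs, is not drawn. Fgfr2 and Tgfbr2 lie on opposite sides of 0 in TFC-like cells, and Acvrl1, Fgfr3 and Acvr2a in stromal-like cells were not called without the cluster led also by Cdh5.

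Genes that work beside the members were counted from 7 lists, with the same test and the same shares over all genes. Of 15 tested BMP and activin antagonists, 12 were higher and none lower in fibroblast-like cells, among them Bmper, which binds BMPs outside the cell. In stromal-like cells 9 of 15 were higher, with Sost among them. Bmper and Sost passed the filter only through these classes, so no test is given for them. TFC-like cells had 6 higher and 2 lower, led by the antagonists Sostdc1 (5.07 ± 0.42, adjusted p = 3.7e-09) and Grem1 (4.07 ± 0.30, adjusted p = 5.1e-10). Endothelial-like cells had 3 higher and 4 lower, macrophage-like cells 1 and 8, and T-like cells 0 and 8.

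Of 16 FGF co-receptors and binding proteins, 12 were higher and none lower in fibroblast-like cells, with the glypican Gpc3 (6.63 ± 0.24, adjusted p = 2.0e-15) and Flrt2 (5.64 ± 0.23, adjusted p = 6.2e-15). In TFC-like cells 10 were higher and 2 lower, with Fgfbp1, a carrier that frees FGFs from the matrix (6.63 ± 0.37, adjusted p = 1.7e-11), and Flrt3 (3.93 ± 0.37, adjusted p = 1.5e-08). Stromal-like cells had 9 higher and 1 lower, endothelial-like cells 5 and 5, macrophage-like cells 2 and 10, and T-like cells 0 and 13. Of 12 FGF response genes, 8 were higher and 1 lower in fibroblast-like cells, led by Etv4 (3.55 ± 0.37, adjusted p = 5.6e-08) and Il17rd (3.04 ± 0.19, adjusted p = 1.1e-11). TFC-like cells had 2 higher, Etv5 (1.45 ± 0.23, adjusted p = 1.3e-05) and Egr1 (1.05 ± 0.26, adjusted p = 0.0019), and 4 lower. Endothelial-like cells had 6 higher and 1 lower, stromal-like cells 6 and 0, macrophage-like cells 5 and 6, and T-like cells 0 and 10.

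Of 13 genes of TGF-beta latency and activation, fibroblast-like cells had 11 higher and 2 lower, with Bgn (6.78 ± 0.23, adjusted p = 8.4e-16) and Ltbp1 (4.08 ± 0.21, adjusted p = 4.4e-13). TFC-like cells had 7 higher and 6 lower, led by Itgb6, part of an integrin that releases latent TGF-beta (5.97 ± 0.44, adjusted p = 6.3e-10), and Ltbp2 (4.08 ± 0.37, adjusted p = 9.0e-09). Endothelial-like cells had 6 higher and 2 lower, led by the co-receptor Eng (4.25 ± 0.21, adjusted p = 2.1e-12), and stromal-like cells 6 and 0. In macrophage-like cells Nrros, which anchors latent TGF-beta on myeloid cells, was higher (4.25 ± 0.15, adjusted p = 1.1e-15), with 2 higher and 8 lower in all, and T-like cells had 1 and 11.

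Of 11 BMP and TGF-beta response genes, 8 were higher and none lower in stromal-like cells, with Msx1 (3.06 ± 0.15, adjusted p = 9.9e-13) and Atoh8 (2.52 ± 0.26, adjusted p = 7.0e-08). Endothelial-like cells had 6 higher and none lower, with Id1 (2.91 ± 0.25, adjusted p = 1.0e-08), and fibroblast-like cells 5 and 1. TFC-like cells had 3 higher and 4 lower, led by Id4 (3.69 ± 0.27, adjusted p = 9.0e-10), macrophage-like cells 2 and 7, and T-like cells 0 and 9. Of 14 Smad genes and adaptors, 8 were higher in endothelial-like, 6 in fibroblast-like, 5 in stromal-like, 4 in TFC-like, 4 in T-like and 2 in macrophage-like cells, and 1, 2, 1, 5, 7 and 7 were lower in the same order. Smad9, a BMP-responsive Smad, was higher in TFC-like cells (4.96 ± 0.26, adjusted p = 7.2e-12). Of 6 tested other superfamily genes, 3 were higher in TFC-like and 3 in fibroblast-like cells, 2 in endothelial-like and 1 each in stromal-like, macrophage-like and T-like cells, and 0, 1, 1, 0, 1 and 3 were lower in the same order.

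Fibroblast-like cells with a UMI of Pi16 or Dpp4, genes of adventitial fibroblasts, were compared with those without one, as 466, 472, 152 and 338 against 1098, 580, 239 and 415 cells. Of 36 members tested, 14 were higher and 5 lower, where 9.06% and 7.66% of 12408 genes were. Bmp7 was at 17.6, 24.1, 12.4 and 18.8 CPM in cells with such a UMI and at 5.46, 1.25, 2.88 and 1.36 CPM in cells without. Fgf18 was at 21.8, 21.8, 8.30 and 30.4 against 8.30, 5.42, 6.92 and 7.75 CPM. Both were at higher levels in cells with the UMI in all 4 libraries, and Fgf18 differed by 1.73 ± 0.20 (adjusted p = 1.7e-05) on the log2 scale. Bmp6 had 3, 21, 8 and 18 against 1, 3, 1 and 1 UMIs. Bmp3, Bmp6, Bmp7, Fgf9 and Fgf16, counted among the 14, passed the filter of 50 UMIs only through the cells with a Pi16 or Dpp4 UMI, so no test is given for them.

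Gdf10 moved the other way, at 474, 374, 718 and 374 CPM in cells with a Pi16 or Dpp4 UMI and at 927, 897, 1196 and 743 CPM in cells without (-0.94 ± 0.07, adjusted p = 1.8e-07). Fgf10 (-0.39 ± 0.08, adjusted p = 0.0027), Acvr2a (-0.57 ± 0.08, adjusted p = 9.9e-05) and Bmp5 (-1.27 ± 0.27, adjusted p = 0.0036) were also lower, each in all 4 libraries, and the call of Bmp5 was lost with doublets kept (adjusted p = 0.055). Fgf7 (-0.16 ± 0.08, adjusted p = 0.24) and Bmp4 (0.13 ± 0.09, adjusted p = 0.40) did not pass. Tgfb1 (-0.38 ± 0.12, adjusted p = 0.043) and Tgfb3 (0.36 ± 0.12, adjusted p = 0.045) passed with all libraries and not without that labelled day 10, 20 or 30 (adjusted p = 0.069 to 0.30 and 0.088 to 0.25). The cells with a UMI had the higher median UMI count in each library, for instance 11001.5 against 8025 in that labelled day 10. Without the library as a block 4 members were called, not including Gdf10, Fgf10, Acvr2a or Bmp5, and with each cell thinned to 1000 UMIs, which leaves fewer UMIs per sum, 8 were. The shares of all genes called in these settings are not given. Of the FGF response genes 7 of 12, and of the BMP and TGF-beta response genes 6 of 11, were lower in cells with the UMI, and none was higher.

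Endothelial-like cells with a UMI of Vwf, a gene of larger vessels, numbered 101, 65, 17 and 53, against 4079, 1324, 448 and 657 without. Their median UMI count was 3102, 11038, 5518 and 18001, against 2133, 4434.5, 3544.5 and 6823 in the cells without. The cluster of 222 cells with Vwf and Lrg1 among its leading genes was named lymphatic endothelial-like and is outside this split. The split therefore compares cells by a detected Vwf UMI and does not stand for larger vessels as a whole. Of 27 members tested, 3 were higher and 3 lower, where 4.71% and 3.84% of 12471 genes were. Bmp4 was at 40.1, 45.6, 186 and 11 CPM in cells with Vwf and at 1.30, 2.73, 2.94 and 4.19 CPM in cells without, from 16, 47, 20 and 13 against 17, 28, 8 and 34 UMIs. Bmp2 was at 17.5, 64.9, 65.0 and 62.4 against 6.41, 13.7, 10.7 and 14.9 CPM. In all 4 libraries both were higher in cells with Vwf, by 3.89 ± 0.36 (adjusted p = 4.9e-16) and 2.10 ± 0.21 (adjusted p = 2.1e-20). Fgfr3 was higher by 1.44 ± 0.22 (adjusted p = 4.8e-09), in 3 of 4 libraries.

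Inhbb was at 20.1, 2.91, 9.29 and 11 CPM in cells with Vwf and at 53.6, 31.4, 39.7 and 18.9 CPM in cells without, from 8, 3, 1 and 13 UMIs in the former. Tgfb2 was lower (-0.93 ± 0.17, adjusted p = 7.6e-07), in all 4 libraries. The call of Tgfb2 was lost with at most 10000 UMIs per cell, with doublets kept and at a cluster resolution of 0.45 (adjusted p = 0.12, 0.090 and 0.55). Inhbb and Fgf1, counted among the 3 lower, passed the filter only through the far more numerous cells without Vwf, so no test is given for them. Without the block only Bmp4 and Bmp2 were called, and with thinned cells no member was. Shares of all genes called are not given for these settings. Of the FGF response genes 4 of 12, and of the BMP and TGF-beta response genes 4 of 11, were lower in cells with Vwf, and none was higher.

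**Figure D4:**
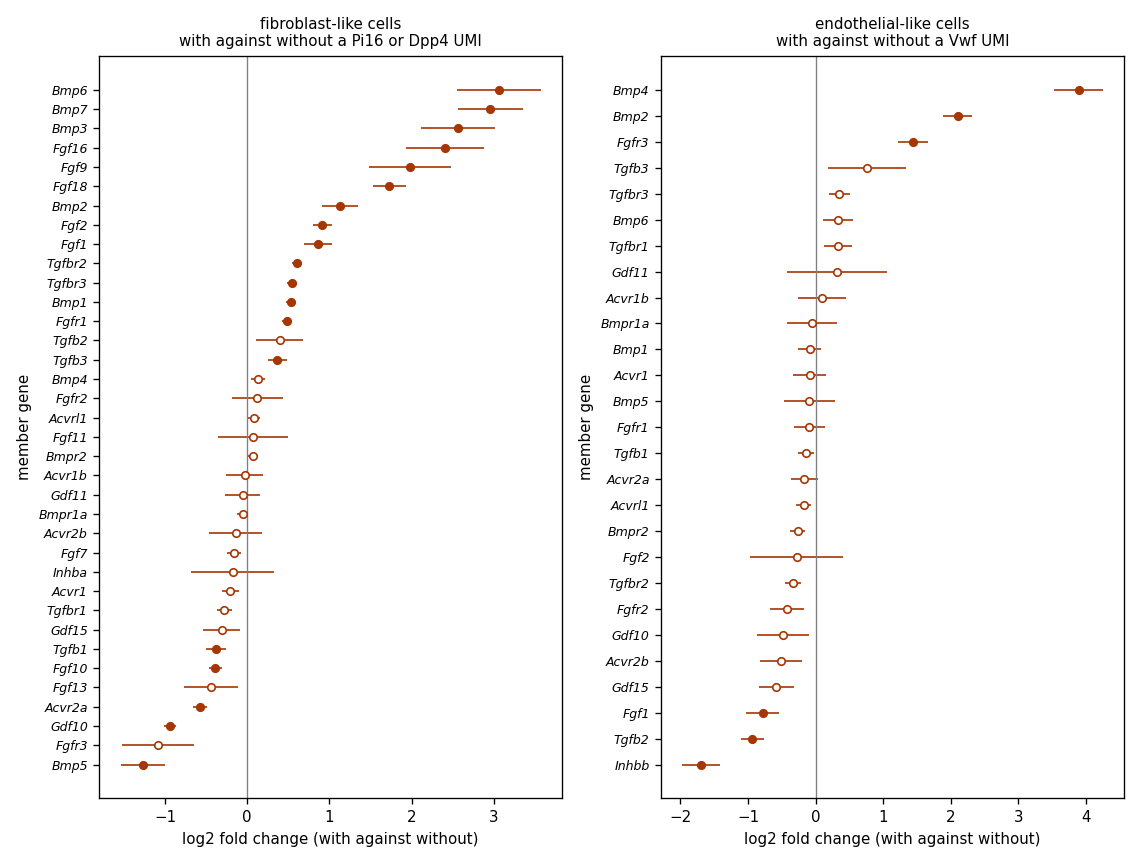
Log2 fold change of every member tested in fibroblast-like cells with against without a Pi16 or Dpp4 UMI (left) and in endothelial-like cells with against without a Vwf UMI (right), with bars of 1 SE from edgeR over 4 libraries. Filled points passed an adjusted p of 0.05, with Gdf10 (-0.94) below 0 on the left and Bmp4 (3.89) and Bmp2 (2.10) above 0 on the right. Bmp3, Bmp6, Bmp7, Fgf9 and Fgf16 on the left passed the filter only through the cells with the UMI, and Inhbb and Fgf1 on the right only through those without.

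Between the libraries labelled day 30 and day 5, levels were compared within each class without a test, as the log2 ratio with an exact 95% interval that covers counting error only. A member was past the fold when the ratio was at least 2-fold and its interval excluded equality, among those with at least 20 UMIs and 10 CPM. In TFC-like cells 4 of 20 members were past it, 3 higher and 1 lower, where 7.89% of all genes were. With each cell weighted equally 2 were, 1 higher and 1 lower, so not every higher ratio given here holds in that setting. Bmp4 was at 2.59, 12.3, 8.50 and 20.8 CPM over the labelled ages (log2 ratio 3.00, 2.65 to 3.38), with free RNA at 2.74 to 7.68 CPM. Acvr2b was at 6.22 and 15.7 CPM at the labels day 5 and day 30 (1.33, 1.05 to 1.62) and Bmp1 at 7.71 and 16.0 CPM (1.06, 0.79 to 1.32). Acvrl1 was lower at day 30 as labelled (-1.09, -1.27 to -0.91), and summed endothelial markers in TFC-like cells ranged from 97.2 to 609 CPM over the libraries, so that their part in the Acvrl1 value was not tested. The levels of Fgfr2, Bmp5 and Fgf1 differed by less than 2-fold. A TFC-like cluster whose leading genes included Foxe1 and Folr1 held 1568 cells labelled day 5 and 56 labelled day 30, and one led by Foxe1, Prlr and Kcnk1 held 784 and 414.

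In endothelial-like cells 7 of 23 members were past the fold (12.4% of all genes), and 4 of them depended on the mixed cluster. Bmp5 (3.28, 2.72 to 3.93), Gdf15 (2.66, 2.34 to 3.01), Bmpr1a (2.36, 1.86 to 2.91) and Fgfr2 (1.69, 1.39 to 2.0) were higher at day 30 as labelled. Without the cluster led also by Foxe1 their log2 ratios were -0.64, 0.28, 0.06 and 0.47, and none was past the fold. The other 3 stayed past it. Tgfb2 was at 35.8 and 95.1 CPM (1.41, 1.25 to 1.57, and 1.78 without the cluster), Bmp2 at 6.74 and 21.0 CPM (1.63, 1.27 to 2.01) and Inhbb at 52.6 and 17.9 CPM (-1.55, -1.81 to -1.31). Of the endothelial-like cells, 2026 and 1695 of 4180 in the library labelled day 5 lay in a pair of clusters led by Gpihbp1 and Kdr, and 496 of 710 in that labelled day 30 in a cluster led by Esm1 and Cdh5.

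In fibroblast-like cells 2 of 24 members were past the fold (9.97% of all genes). Bmp3 was at 3.88 and 15.8 CPM at the labels day 5 and day 30 (2.0, 1.43 to 2.67), and Bmp5 at 14.6 and 4.18 CPM (-1.80, -2.35 to -1.29). Fgf7, Fgf10 and Gdf10 were within 2-fold. In macrophage-like cells 2 of 9 were past it (19.5% of all genes). Tgfbr1 was at 221 and 85.4 CPM (-1.37, -1.54 to -1.20), with the library labelled day 20 near the former at 209 CPM and that labelled day 10 near the latter at 102 CPM, so the levels did not follow the order of the labels. Bmp2 was at 12.1 and 32.8 CPM (1.43, 0.96 to 1.95). Of the macrophage-like cells, 640 of 843 and 422 of 497 in the libraries labelled day 10 and day 30 lay in a cluster led by Mrc1, F13a1 and Lyve1, and 689 of 1036 in that labelled day 5 in a cluster led by Ccl4, Ccl3 and Cxcl2.

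In stromal-like cells 5 of 28 members were past the fold (15.1% of all genes), with Gdf5 (1.73, 0.91 to 2.66), Fgfr2 (-1.63, -3.13 to -0.49), Gdf15 (-1.47, -1.94 to -1.03) and Bmp1 (1.41, 1.02 to 1.81) the largest. Without the mixed cluster 5 of 27 were, with Acvr2a (1.10 with it, 0.78 without) no longer and Tgfb2 (0.78 and 1.56) newly among them, Gdf5 at 2.62 and Fgfr2 at -2.74. In T-like cells 4 of 7 were (34.1% of all genes). Tgfbr2 was at 111, 144, 37.2 and 28.6 CPM and was lower at day 30 as labelled (-1.96, -2.44 to -1.44), while Tgfbr1 was at 14.8, 22.2, 39.3 and 43.6 CPM (1.45, 0.42 to 3.02). These ratios set the libraries whose T-like cells came mainly from the cluster led by Trbc1, Rag1 and Cd8b1 against those without it. Bmp7 and Gdf11 had no UMI in the library labelled day 5, and no ratio is given for them.

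**Figure D5:**
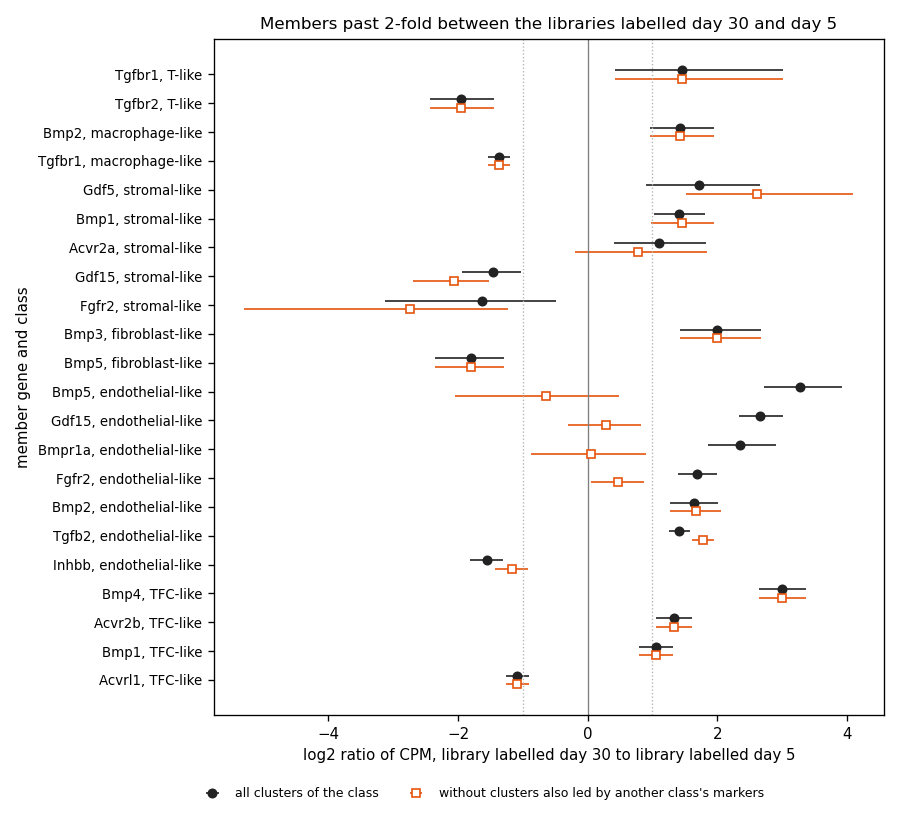
Log2 ratio of CPM between the libraries labelled day 30 and day 5 for members past 2-fold in each class, with exact 95% intervals for counting error. Filled circles use all clusters of a class, open squares leave out the clusters led also by markers of another of the 6 classes, and dotted lines mark 2-fold. Bmp5, Gdf15, Bmpr1a and Fgfr2 in endothelial-like cells fall inside the dotted lines without that cluster, and Bmp7 and Gdf11 in T-like cells, at 0 UMIs in the library labelled day 5, are not drawn.

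The 24 members that did not pass the filter were close to absent. Bmp10 and Gdf1 had no UMI in any kept cell, Fgf14 had 68 UMIs over all cells, Bmp15 49, Fgf22 48, Gdf6 41, Gdf3 38, Acvr1c 35, Fgf15 34 and Fgfr4 31, and the other 14 had between 1 and 22. A pair of these genes had most of their UMIs in rare epithelial classes, which were too small for the fit. Fgf14, a neuronal FGF that stays inside the cell, was at 6.21, 14.2, 15.8 and 10.2 CPM in cells like the calcitonin-producing C cells, which held 64 of its 68 UMIs. All 14 UMIs of Fgf20 were in parathyroid-like cells, with 5, 2, 4 and 3 per library.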

How the data were processed

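Thyroid tissue of pooled mice was digested with collagenase and dispase, dead cells were removed, and droplet libraries were made, 1 per age. The deposited matrices hold raw UMI counts per gene and barcode, which the authors aligned to mm10. Per the labels Seurat was used. The barcodes of cells came from the header of a deposited table, whose values were not used. Cells needed at least 200 UMIs, at most 10% mitochondrial and 5% hemoglobin UMIs. The study's limit of 10000 UMIs per cell was an alternative. The 6% of cells with the highest doublet scores were removed.

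Cells were clustered with scanpy 1.11.5 (3000 variable genes without the members, 30 components, Leiden resolution 0.9) without integration of libraries. Clusters were named from marker lists, and the naming rule was settled after the clusters had been seen. Members, gene lists and tests were chosen with earlier results of these data known. UMIs were summed per class and library and tested with the quasi-likelihood test of edgeR 4.0.16 in R 4.3.3, with Benjamini-Hochberg adjustment over all genes and the library as a block, since sums of 1 library come from the same pool of animals. DESeq2 1.42.0 was an alternative. In simulated sums for the TFC-like contrast over 16124 genes, the test recovered 96% of 4-fold and 73% of 2-fold changes and made 12 false calls. The changed genes were drawn only from those above a minimum mean count, and all others were equal between classes, unlike in the data. These rates therefore do not cover sparse members such as Fgf12 and Fgf16. Libraries stand for the replicates of a class, so p-values measure the spread between 4 libraries that also differ in age. Intervals of ratios between ages are exact, at 95%, and cover counting error only.

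Statistics in full were meant for the called members with the largest changes in each class (6 higher, 3 lower), the receptors, Tgfb1 to Tgfb3, 5 members per direction in each split, 4 per class between ages and 2 genes of each list. Further members given with full statistics, such as Fgf18 in the fibroblast split, were chosen after their values were seen. Named genes that passed the filter of 50 UMIs only through the class or cells where they were high are given without a test. Promoters came from RefSeq, where 48 of the 66 members had an entry, and no protein sequence was used here. Some genes of the lists are not reported here by name.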

Additional observations from a re-analysis of the deposited data

Results flagged for a closer look

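Gdf15 in endothelial-like cells stood on different sides of the mean of the other 5 classes in different libraries. The log2 differences were -2.97, -0.42, -1.35 and 1.02 in the libraries labelled day 5, 10, 20 and 30, a range of 3.99, from 91, 267, 29 and 398 UMIs. The difference between libraries was not tested. Without the endothelial-like cluster led also by the follicular gene Foxe1, the log2 ratio of the libraries labelled day 30 and day 5 was 0.28 in place of 2.66.

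Bmp5 in fibroblast-like cells was above that mean in the libraries labelled day 5 and day 20 (0.86 and 1.37) and below it in those labelled day 10 and day 30 (-0.41 and -1.11), a range of 2.49, from 102, 56, 37 and 44 UMIs. This difference was not tested either. The same pairs of libraries differed in the cluster that held most of their fibroblast-like cells.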

How the results depend on the processing

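Of 189 calls of members over the 8 comparisons, 112 were kept under every one of 19 alternatives that tested the member, and 120 under every one other than thinning. With cells thinned to 1000 UMIs, 15 members were called in TFC-like, 12 in stromal-like and 17 in macrophage-like cells, 8 in the Pi16 or Dpp4 split and 0 in the Vwf split, where Fgfr3 turned to -0.058. Without the library as a replicate block, 4 and 2 members were called in the splits. Leaving out each library in turn left 24 to 26 calls in TFC-like, 22 to 24 in endothelial-like, 26 to 27 in fibroblast-like, 21 to 23 in stromal-like, 20 to 28 in macrophage-like and 27 to 34 in T-like cells, 14 to 20 in the Pi16 or Dpp4 split and 5 to 8 in the Vwf split. Between the libraries labelled day 30 and day 5, 2 of 20 members in TFC-like, 6 in endothelial-like, 6 in stromal-like and 3 in macrophage-like cells were past 2-fold with each cell weighted equally. With at most 10000 UMIs per cell, 2 of 16, 4 of 20, 8 of 27 and 4 of 10 were in the same order, and 3 of 6 in T-like cells. The share of all genes called or past 2-fold is given for the main setting only, here and above. Counts of members in the other settings are therefore no result about the members.

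Signs turned as follows, and the cause was not tested. With at most 10000 UMIs per cell, Bmpr2 (-0.86) and Tgfbr1 (-0.65) turned in TFC-like, Acvr2a (-0.41) and Acvrl1 (-0.34) in stromal-like and Fgf13 (1.46) in T-like cells. With doublets kept, Fgfr2 turned in fibroblast-like cells (0.34). With marker gates in place of clusters, Fgf9 turned in TFC-like (0.76), Fgfr3 in fibroblast-like (0.64), Fgfr3 (0.48) and Fgf13 (1.10) in T-like, and Acvr2a (-0.60), Fgfr3 (-6.32), Tgfb1 (-0.82) and Acvrl1 (-1.35) in stromal-like cells. An alternative chosen after seeing the data left out clusters led also by markers of another of the 6 classes, and Acvr2a (-0.12), Fgfr3 (-0.67), Tgfb1 (-0.78) and Acvrl1 (-0.57) turned in stromal-like cells. Leaving out shallow clusters, also chosen after seeing the data, or cells whose barcode was a cell in another library changed none of the 189 calls.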

Other observations

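Values of members in classes with too few cells for the fit are given here without a test. In C cell-like cells, Fgf12 was at 12, 24.3, 18.2 and 27.1 CPM from 114 UMIs, where its highest median among the 6 classes was 0.71 CPM. Fgf9 was at 11.1, 19.7, 12.2 and 18.1 CPM there from 90 UMIs, where the highest median was 2.11 CPM. In parathyroid-like cells Bmp7 was at 22.7, 7.89, 26.7 and 36.9 CPM from 50 UMIs and Fgfr2 at 73.0, 71.0, 75.3 and 86.7 CPM from 45, 18, 48 and 40 UMIs. Nerve-like cells held Fgf2 at 42.3, 56.0, 75.8 and 22.1 CPM from 17, 33, 5 and 8 UMIs.

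In cells like group 2 innate lymphoid cells, Bmp7 was at 49.0, 68.0, 75.2 and 49.5 CPM from 101 UMIs and Bmp2 at 89.5, 70.0, 111 and 41.7 CPM from 132 UMIs. A cluster named lymphatic endothelial-like, with 165, 31, 20 and 6 cells, held Bmp4 at 122, 66.8, 159 and 135 CPM. Tgfbr2 was at 354, 356, 558 and 382 CPM in the same cluster, whose leading genes included Vwf and Lrg1 beside Ccl21a, Mmrn1 and Prox1. With at most 10000 UMIs per cell, the lymphatic cluster held 43, 1, 13 and 0 cells, and a separate cluster led by Vwf and Lrg1 was named endothelial. These Bmp4 and Tgfbr2 values can thus include blood endothelial cells, whose part was not tested. In monocyte-like cells Tgfb1 was at 342 to 548 CPM.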
